A study of Homo sapiens with 17 samples.

Results

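Matrix metalloproteinases (MMPs) are zinc-dependent enzymes that cut proteins of the extracellular matrix, and tissue inhibitors of metalloproteinases (TIMPs) are secreted proteins that bind and block them. The 10 genes described here are 8 MMP genes (MMP1, MMP2, MMP3, MMP7, MMP9, MMP10, MMP13 and MMP14) and 2 TIMP genes (TIMP1 and TIMP2), of 57820 genes listed in each table. The set was selected on the increase of MMP13 after knockout of SOX2, so the knockout values are given as a description with no test, and tests are given for libraries that this choice did not use. Most MMPs are made as inactive pro-enzymes and become active when another protease removes the pro-peptide. In carcinomas much of this activity is known to come from stromal cells, although squamous carcinoma cells can themselves transcribe the collagenase and stromelysin genes.

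Poly-A RNA of 17 libraries in 8 groups was measured, 13 from KYSE140, an esophageal squamous cancer line, and 4 from SKMES1, a lung squamous cancer line. KYSE140 cells with CRISPRi (interference by a catalytically dead Cas9 that carries repressor domains) carried guides to e1, an enhancer of SOX2 (n = 2), or negative-control guides without a genomic site (NC, n = 2). KYSE140 cells with active Cas9 carried guide 2, 3 or 4 against the SOX2 coding sequence (n = 3), or a control guide to AAVS1 or Chr2.2 (n = 2). Other KYSE140 cells received 0.5 µM ARV-771, a compound that leads to degradation of bromodomain proteins, for 6 h (n = 2), or the solvent DMSO for 6 h (n = 2). SKMES1 cells with CRISPR activation (CRISPRa, an inactive Cas9 with VP64 and recruited p65 and HSF1 domains) carried e1 guide 1 or 3 (n = 2) or NC guide 1 or 2 (n = 2). The CRISPR libraries came from pools of infected and selected cells, and each library of a group had its own guide.

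Total expected counts ranged from 7260730 to 15781463 per library, so that the floor of 3 counts amounted to 0.19 to 0.413 CPM (counts over the library total). No fold is given where both groups were at or under this floor. As the check of the target, SOX2 reached 365 and 379 TPM (a relative transcript level corrected for length) with CRISPRi NC guides, against 120 and 128 TPM under e1 repression. AAVS1 and Chr2.2 libraries held 397 and 428 TPM of SOX2, and guides 2, 3 and 4 against its coding sequence left 103, 125 and 221 TPM. With DMSO it was 223 and 236 TPM, and with ARV-771 it was 9.8 and 10.5 TPM. In SKMES1 it was 1.53 and 1.68 TPM with NC guides and 224 and 316 TPM with activating guides. All 7 squamous markers examined were above the floor in every KYSE140 library, with a summed level of at least 5750 TPM, whereas their summed level in SKMES1 was 33.9 to 171 TPM and KRT5, a basal keratin, was at 0.05 to 1.26 TPM there. The SKMES1 NC library 2 stood apart from NC library 1, with the keratin KRT14 at 118 TPM against 0.31 TPM.

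In the GRCh37 assembly (hg19, the build of the files), 5 of the MMP genes lay in 1 cluster of 9 MMP genes on the minus strand of chromosome 11 that spanned 435.2 kb, from MMP7 (chr11:102391239-102401481) through MMP10 (chr11:102641233-102651359), MMP1 (chr11:102660132-102668891) and MMP3 (chr11:102706532-102714340) to MMP13 (chr11:102813724-102826461). The others were MMP2 (chr16:55423612-55540603), MMP9 (chr20:44637547-44645200), MMP14 (chr14:23305769-23318250), TIMP1 (chrX:47441807-47446188) and TIMP2 (chr17:76849059-76921469). Whether counting used the strand of reads was not given in the sources used here. TIMP1 lies opposite SYN1, and MMP1, MMP3 and MMP10 lie opposite parts of the pseudogene WTAPP1, MMP9 lies opposite SLC12A5-AS1, and TIMP2 overlaps CEP295NL and ENSG00000267601, so reads of these pairs may be mixed. SLC12A5-AS1 was at 1.20 and 0.08 TPM in the e1-repressed libraries 1 and 2, where MMP9 itself was at 1.82 and 1.67 TPM. SLC12A5-AS1 reached 2.26 TPM in 1 knockout control. The highest levels in any library were 0.72 TPM for SYN1, 1.61 TPM for WTAPP1 and 2.04 TPM for ENSG00000267601, and what reads they share with the set was not tested.

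Promoter sequences of RefSeq (250 bases before to 50 bases after the start site) were held for 4 of the 10 genes, MMP7, MMP10, MMP14 and TIMP1, and each matched GRCh37 at exactly 1 place. They were searched on both strands for TGANTCA, letters bound by the AP-1 family of FOS and JUN proteins, which read the same on both strands. Other forms of AP-1 sites were not searched. MMP7 and MMP10 are shown because both rose on e1 repression and both hold these letters. Since the choice used both traits, nothing is read from their going together. TIMP1 is shown because it rose without an exact match, but it holds TGAGTAA, a close run of letters that the search could not match. MMP14, which was not called, had no match and is not shown. Capitals mark the TGANTCA match, at positions -67 to -61 from the start site in MMP7 and at -67 to -61 in MMP10. The MMP7 promoter is chr11:102401429-102401728 (minus strand), the MMP10 promoter chr11:102651310-102651609 (minus strand) and the TIMP1 promoter chrX:47441585-47441884 (plus strand).
MMP7: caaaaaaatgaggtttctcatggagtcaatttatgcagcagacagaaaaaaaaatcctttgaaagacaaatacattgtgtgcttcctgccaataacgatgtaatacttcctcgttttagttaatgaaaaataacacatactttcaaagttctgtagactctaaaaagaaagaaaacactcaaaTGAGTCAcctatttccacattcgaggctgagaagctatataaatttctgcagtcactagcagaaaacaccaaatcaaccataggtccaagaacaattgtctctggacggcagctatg
MMP10: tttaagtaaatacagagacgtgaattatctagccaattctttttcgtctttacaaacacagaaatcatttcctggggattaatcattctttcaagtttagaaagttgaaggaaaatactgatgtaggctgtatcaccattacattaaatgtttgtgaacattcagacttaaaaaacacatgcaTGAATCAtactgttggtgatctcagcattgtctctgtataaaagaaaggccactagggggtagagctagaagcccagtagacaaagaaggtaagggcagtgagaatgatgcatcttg
TIMP1: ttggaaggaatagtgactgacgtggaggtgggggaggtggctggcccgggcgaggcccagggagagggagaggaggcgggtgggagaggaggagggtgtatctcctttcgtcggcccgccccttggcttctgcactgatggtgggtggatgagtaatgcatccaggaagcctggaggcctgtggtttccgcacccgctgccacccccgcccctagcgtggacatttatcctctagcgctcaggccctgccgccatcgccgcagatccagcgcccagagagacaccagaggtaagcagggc
TGANTCA was held by 2 of the 4 promoters, against 7.76% of 27305 promoters of this length. On the gene strand MMP7 held TATAAA, the letters of a TATA box, at -30 to -25 and MMP10 at -31 to -26, and 7.71% of all promoters held it. CATTGT, letters of SOX family sites, was searched with its reverse complement and lay at -178 to -173 in MMP7 and at -42 to -37 in MMP10, and 11% of all promoters held it. AGGAAG, letters of ETS family sites, was present on either strand in MMP7 at -169 to -164 and -145 to -140 and in TIMP1 at -87 to -82, against 33.7% of all promoters. TGTGGT, letters of RUNX family sites, was present in TIMP1 at -71 to -66 and in MMP14 at -177 to -172, against 13.1% of all promoters. None of these matches overlapped another, and a match is only a run of letters, not a measured site.

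Across the 6 KYSE140 control libraries the inhibitors and a few proteases were transcribed at low to moderate levels. TIMP1, which binds many active MMPs and also pro-MMP9, had a median of 23.8 TPM (14.7 to 47.6 TPM), and TIMP2, which also takes part in the activation of pro-MMP2, had a median of 15.1 TPM (12.2 to 18.7 TPM). MMP2, a gelatinase, had a median of 6.79 TPM (3.6 to 9.75 TPM). MMP10, a stromelysin, had a median of 7.35 TPM (5.65 to 24.9 TPM). MMP13, a collagenase that cuts fibrillar collagens, had a median of 1.81 TPM (1.38 to 2.76 TPM). The interstitial collagenase MMP1, the matrilysin MMP7, the gelatinase MMP9 and the membrane-bound MMP14 had medians of 0.555, 0.28, 0.05 and 0.46 TPM, and MMP3, the other stromelysin, had no count in these 6 libraries. The control groups were not alike, since the knockout controls held 23.4 and 24.9 TPM of MMP10 against 5.98 and 8.65 TPM with CRISPRi NC guides and 5.65 and 6.05 TPM with DMSO. TIMP1 was likewise highest in the knockout controls, at 46.7 and 47.6 TPM, against 22.3 and 25.2 TPM with CRISPRi NC guides and 14.69 and 14.99 TPM with DMSO. Each treated group was therefore compared only with its own controls.

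**Figure D1:**
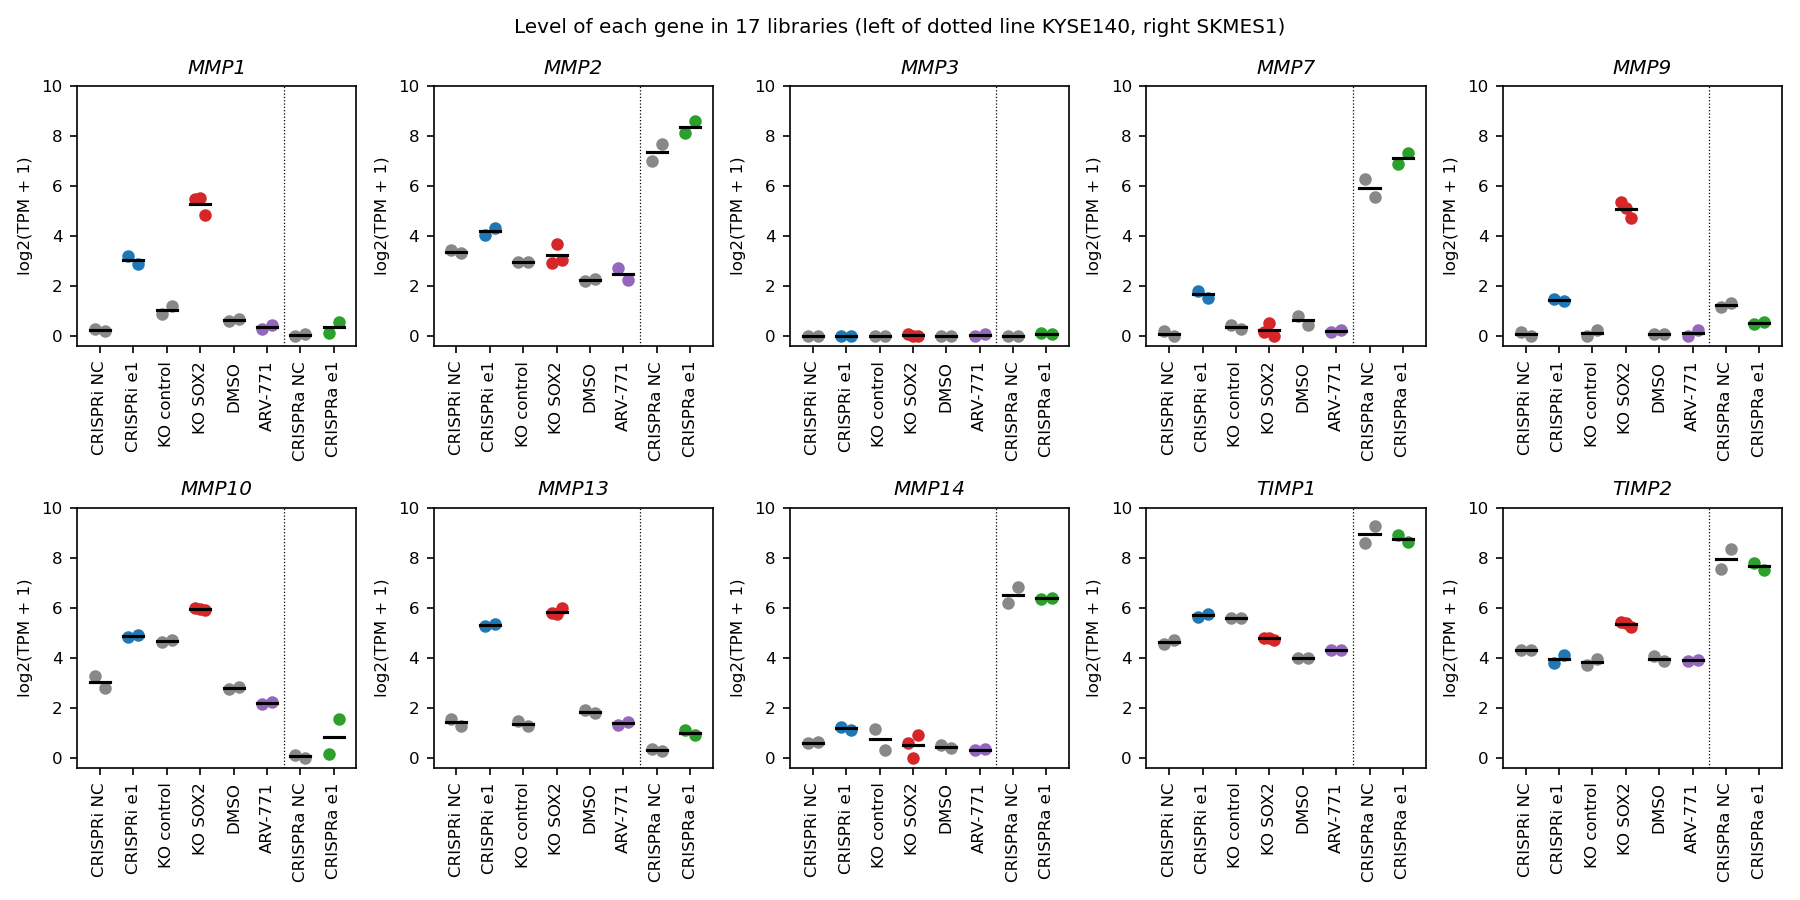
Level of each of the 10 genes, as log2(TPM + 1), in every library by group (points) with the group mean (bar). KYSE140 groups stand left of the dotted line and SKMES1 groups right of it. MMP1, MMP9 and MMP13 are near 0 to 2 in the KYSE140 controls and higher with SOX2 guides, and MMP2, MMP7, MMP14, TIMP1 and TIMP2 are highest in SKMES1.

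Repression of e1 asked which genes change when the enhancer of SOX2 is silenced. It was accompanied by higher levels of the collagenases MMP1 and MMP13, the stromelysin MMP10, both gelatinases MMP2 and MMP9, the matrilysin MMP7 and the inhibitor TIMP1. Of the 10 genes, 9 passed the filter on low counts and 7 were called higher, that is, past an edgeR adjusted p of 0.05 and changed more than 1.5-fold, while 9.30% of the 13792 genes tested were called higher. The median log2 fold change was 1.94 over the 9 genes and -0.002 over all genes. MMP1, MMP7 and MMP9 passed the filter through the e1 libraries alone, so they could only be found higher, and they raise both the count and the median. The other called genes, MMP2, MMP10, MMP13 and TIMP1, passed it through both groups.

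MMP13 had 36 and 29 expected counts in the NC libraries (1.89 and 1.43 TPM) and 568 and 648 in the e1 libraries (37 and 39.5 TPM). The groups were far apart, with a log2 fold change of 4.48 ± 0.14 (SE, n = 2 against 2, adjusted p = 8.3e-13), which placed MMP13 at rank 40 among all genes tested. MMP1 had 3 and 2 counts with NC guides and 94 and 78 counts with e1 guides. Both e1 libraries were above both controls, by a ratio of the summed counts of 40.2 (95% counting interval 16.9 to 125), and the edgeR adjusted p was 7.0e-08. The intervals of counts cover counting error only.

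MMP10, whose gene lies next to MMP1, had 106 and 75 counts with NC guides (8.65 and 5.98 TPM) and 270 and 311 with e1 guides (27.0 and 28.6 TPM). The log2 fold change was 1.94 ± 0.16 (adjusted p = 6.5e-08). MMP3 had no count in any of these 4 libraries and was not tested. The 4 genes of the cluster that are not in the set, MMP20, MMP27, MMP8 and MMP12, were not tested in this comparison, and in any of the 17 libraries they reached at most 5 counts.

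MMP2 had 164 and 165 counts with NC guides and 333 and 387 with e1 guides. Its log2 fold change was 1.39 ± 0.11 (adjusted p = 6.2e-08), and both e1 libraries were above both controls. How many of all genes were without overlap on e1 repression was not computed. MMP9 had 2 and 0 counts with NC guides and 25 in each e1 library, a ratio of 29.2 (95% counting interval 7.67 to 248, adjusted p = 9.4e-05). MMP7 had 1 and 0 counts against 15 and 12, a ratio of 31.5 (95% counting interval 5.2 to 1290, adjusted p = 8.0e-04). The levels of MMP9 and MMP7 under e1 repression, 1.67 to 2.54 TPM, were thus still low. Without the library of e1 guide 1, MMP7 no longer passed the filter and 6 genes were called higher. MMP14 had 14 and 12 counts with NC guides and 20 and 18 with e1 guides, a log2 fold change of 0.81 ± 0.45 that did not pass the test (adjusted p = 0.16).

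The inhibitors did not move together. TIMP1 had 114 and 139 counts with NC guides (22.3 and 25.2 TPM) and 190 and 234 with e1 guides (48.7 and 52.8 TPM). Its log2 fold change was 1.01 ± 0.14 (adjusted p = 2.8e-05). TIMP2 had 484 and 501 counts with NC guides and 282 and 392 with e1 guides, a log2 fold change of -0.29 ± 0.11 that was under the minimum fold change (adjusted p = 0.0405).

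Markers of other cell types were measured beside these changes. Of 6 fibroblast markers, COL1A1 moved from 13.5 and 15.9 TPM with NC guides to 37.3 and 38.3 TPM with e1 guides, while COL1A2 and COL3A1 were at 0 in all 4 libraries and DCN, LUM and PDGFRB reached at most 0.52 TPM. The summed level of the list was 13.5 to 15.9 TPM and 37.4 to 39.1 TPM. Of 4 leukocyte markers, CD68 moved from 0.84 and 1.08 TPM to 24.4 and 25.8 TPM, while PTPRC was at most 0.03 TPM, CD3E was at 0 and LYZ was at most 0.55 TPM. The summed level of this list was 0.84 to 1.66 TPM and 24.8 to 26.3 TPM. The endothelial list, of which 2 of 3 genes were found, summed to 0.34 to 0.53 TPM. The summed level of the 7 squamous markers was 6286 and 6310 TPM with NC guides and 9605 to 9647 TPM with e1 guides, of which KRT5, KRT6A and KRT14 made up most, while TP63 (-0.62 ± 0.05, adjusted p = 8.5e-08 with edgeR), a transcription factor of basal epithelium, and EPCAM (-0.76 ± 0.06, adjusted p = 3.3e-08) were called lower. In the knockout series the squamous sum was 7234 and 7243 TPM in controls and 22780 to 26520 TPM with SOX2 guides, with TP63 at 167 and 182 TPM against 56.9 to 78.5 TPM. In the knockout series the summed level was 10.2 to 19.2 TPM in controls and 39.5 to 44.2 TPM with SOX2 guides for the fibroblast list, of which COL1A1 made up most, and 3.61 to 4.27 TPM and 54.2 to 71.4 TPM for the leukocyte list, of which CD68 made up most. The part of any of these markers in the values of the set was not tested. In bulk RNA, fewer cells that transcribe a gene and less RNA per cell cannot be told apart.

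In the SOX2 knockout libraries, whose values chose the set, 8 of the 10 genes passed the filter and 5 were called higher, where 16.3% of 13978 genes were called higher; nothing is read from this count, since the choice used this contrast. The median log2 fold change of all genes was -0.007 with TMM, where 54.7% of calls were higher, and -0.207 when scaled to library size, where 36.2% of calls were higher; the signs of the values below were the same with both scalings. For MMP13 the AAVS1 and Chr2.2 libraries held 29 and 16 counts, and SOX2 guides 2, 3 and 4 gave 1317, 660 and 1095. These were 1.73 and 1.38 TPM against 53.3, 52.7 and 62.7 TPM, a log2 fold change of 5.39 ± 0.16. MMP9 was at 0 and 2 counts in control libraries against 847, 371 and 372 after knockout, a ratio of the summed counts of 427 (95% counting interval 118 to 3530). MMP1 was at 10 and 12 counts in control libraries against 767, 411 and 336 after knockout, a log2 fold change of 5.39 ± 0.34.

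MMP10 was at 23.4 and 24.9 TPM in control libraries and 62.5, 60.1 and 58.1 TPM after knockout, a log2 fold change of 1.54 ± 0.11 from a starting level already above that of the other control groups. TIMP2 was at 12.2 and 14.5 TPM in control libraries against 41.6, 40.9 and 36.1 TPM after knockout, a log2 fold change of 1.82 ± 0.11. TIMP1 stood at 46.7 and 47.6 TPM against 26.7, 26.9 and 25.3 TPM, a log2 fold change of -0.56 ± 0.14, which is under the minimum fold change. All 3 knockout libraries were above both controls for MMP13, MMP9, MMP1, MMP10 and TIMP2 and below them for TIMP1. The share of all genes without overlap was not computed. Guide 4, with the highest remaining SOX2 at 221 TPM, gave the lowest MMP1 (27.4 TPM) and MMP9 (25.1 TPM) of the 3 guides but the highest MMP13. It also gave the lowest MMP10, TIMP2 and TIMP1. Its library differed more from guides 2 and 3 (chi-square per degree of freedom 13.4 and 6.79) than these from each other (2.86). Each guide is 1 library, and a relation to the SOX2 level was not tested. MMP2 overlapped between the groups (log2 fold change 0.35 ± 0.15), MMP14 was at 0 to 17 counts in these 5 libraries (log2 fold change -0.09 ± 0.89), and MMP7 and MMP3 were at or under the floor of 3 counts.

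The e1 and knockout contrasts had separate controls, and their values are set side by side without a test of the difference. MMP13 had log2 fold changes of 4.48 and 5.39. MMP7 reached 15 counts with e1 guides and at most 2 with SOX2 guides. TIMP1 had log2 fold changes of 1.01 and -0.56, and TIMP2 of -0.29 and 1.82, so the inhibitor that was higher was TIMP1 in one contrast and TIMP2 in the other. TIMP1 ended at 25.3 to 26.9 TPM in the knockout libraries and at 48.7 and 52.8 TPM in the e1 libraries, and its controls also differed, as given above.

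**Figure D2:**
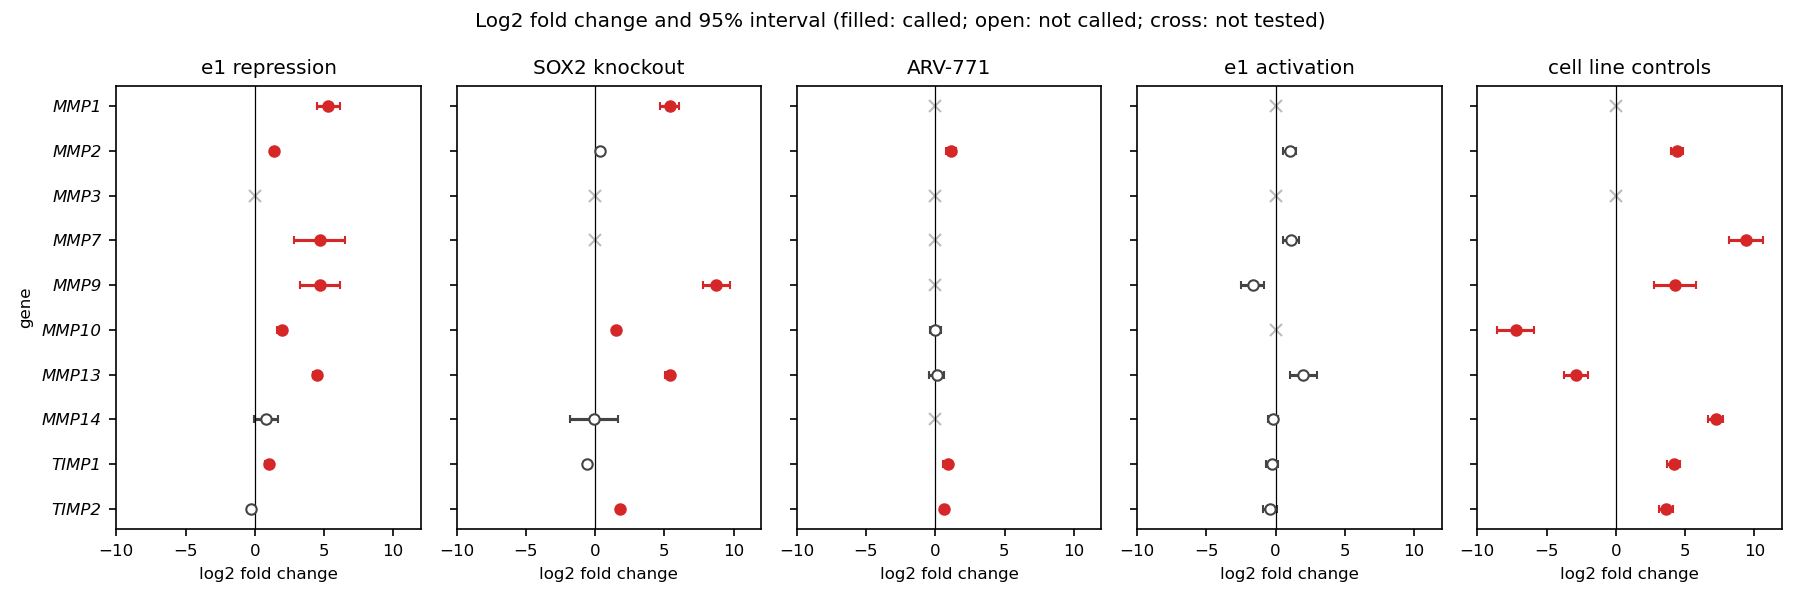
Log2 fold change of each gene (points) with its 95% interval in 5 comparisons, treated against control and, in the last panel, SKMES1 against KYSE140 control libraries. Filled points were called, open points were not and crosses were not tested. Under e1 repression 7 genes are filled, all to the right of 0, and none is filled under e1 activation.

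Summed over the 8 MMP genes, the level per library was higher relative to that of the 2 TIMP genes with e1 or SOX2 guides, as a description without a test. The summed MMP level was 21.3 and 17.02 TPM with CRISPRi NC guides and 93.6 and 98.3 TPM with e1 guides. The ratio of summed MMP to summed TIMP level went from 0.521 and 0.388 to 1.52 and 1.42. In the knockout series it was 0.584 and 0.565 in the controls and 3.04, 3 and 2.96 with SOX2 guides. The gene with the highest share of the MMP sum was MMP2 with CRISPRi NC guides (45.8% and 52.5%) and MMP13 with e1 guides (39.5% and 40.2%). In the knockout controls MMP10 held 68% and 71.1%. The TIMP sum leaves out TIMP3, at 70.7 and 77.2 TPM with CRISPRi NC guides and 41.9 and 44.6 TPM with e1 guides. In the knockout series TIMP3 was at 62.4 and 63.4 TPM in the controls and 32.5 to 47.9 TPM with SOX2 guides. RNA ratios say nothing of how much protein was secreted or active.

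**Figure D3:**
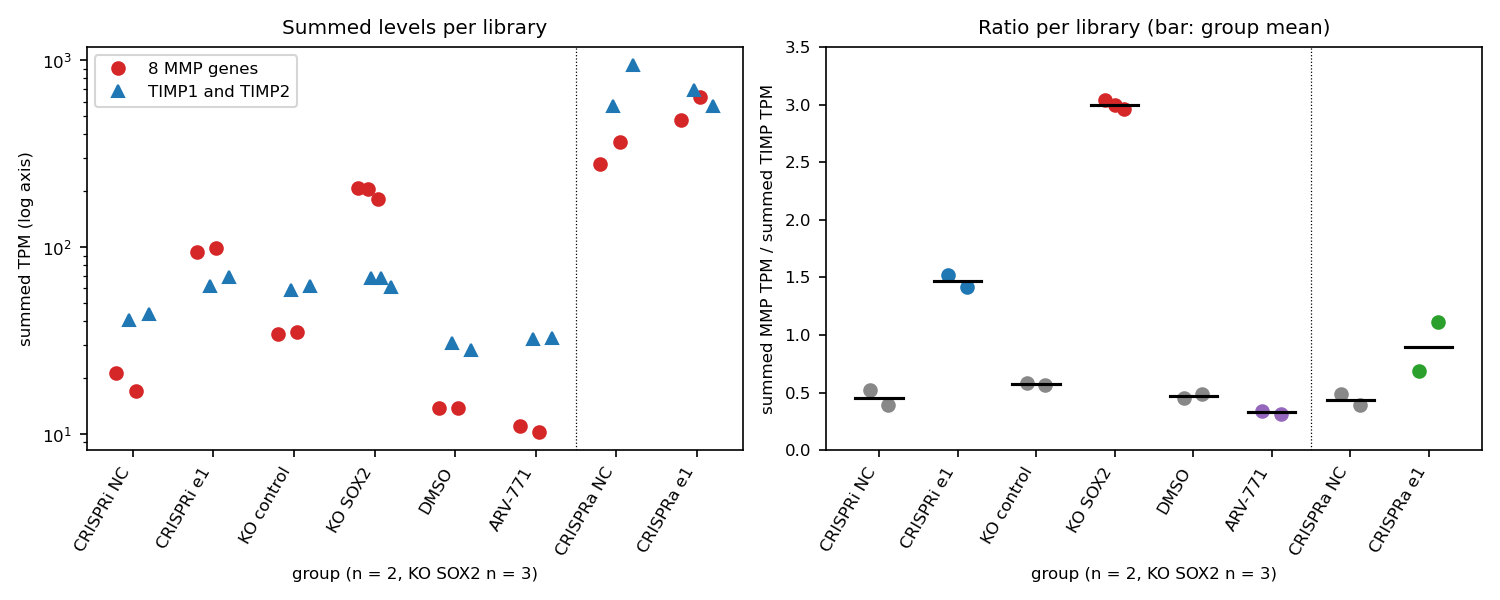
Left, summed TPM of the 8 MMP genes (circles) and of TIMP1 and TIMP2 (triangles) in each library on a log axis. Right, their ratio in each library with the group mean (bar), which is 0.388 to 0.584 in the 6 KYSE140 control libraries, above 1.4 with e1 guides and near 3 with SOX2 guides.

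SOX2 was also lower with ARV-771, and this comparison asked how the set stood after 6 h. MMP13 had 61 and 42 counts with DMSO (2.76 and 2.42 TPM) and 32 and 52 with ARV-771 (1.5 and 1.69 TPM). MMP10 had 77 and 80 counts with DMSO (5.65 and 6.05 TPM) and 51 and 70 with ARV-771 (3.38 and 3.69 TPM). Both were lower with ARV-771 in TPM, whereas on the TMM scale (trimmed mean of M values, which assumes that most genes keep their level) MMP13 had a log2 fold change of 0.09 ± 0.28 (95% interval -0.46 to 0.63, adjusted p = 0.784) and MMP10 of 0.01 ± 0.22 (95% interval -0.41 to 0.43, adjusted p = 0.958).

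On that scale 5 of the 10 genes passed the filter and 3 were called higher, where 21.2% of 13500 genes were called higher. MMP2 had 95 and 72 counts with DMSO and 147 and 133 with ARV-771, a log2 fold change of 1.15 ± 0.19 (adjusted p = 9.0e-06). In TPM its groups overlapped, at 3.6 and 3.88 against 5.54 and 3.79. TIMP1 had 90 and 87 counts against 108 and 142, a log2 fold change of 0.89 ± 0.17 (adjusted p = 5.5e-05). TIMP2 had 466 and 388 counts against 432 and 572, a log2 fold change of 0.62 ± 0.09 (adjusted p = 1.2e-06), and its TPM overlapped between the groups, at 15.6 and 13.5 against 13.6 and 14.1.

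These directions rest on the scaling. The median log2 fold change of all genes was -0.044 with TMM, -0.503 when scaled to library size and -1.12 when scaled to mitochondrially encoded transcripts, and 40%, 5.9% and 0.823% of all calls were higher. With library size MMP2 alone was called higher (0.69), and with mitochondrial scaling none was called higher and MMP10 (-1.06) and MMP13 (-1) were called lower. Relative to the median of all genes under mitochondrial scaling, MMP13 and MMP10 therefore stood close to the median gene, and MMP2 (0.07), TIMP1 (-0.19) and TIMP2 (-0.46) above it. MMP1, MMP7 and MMP9 stayed at 0 to 9 counts in these 4 libraries, MMP14 at 8 to 13 counts and MMP3 at no more than 1 count. The ratio of summed MMP to summed TIMP level, which no scaling between libraries affects, was 0.449 and 0.485 with DMSO and 0.342 and 0.313 with ARV-771. It leaves out TIMP3, at 54.6 and 56.6 TPM with DMSO and 35.4 and 37.7 TPM with ARV-771.

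**Figure D4:**
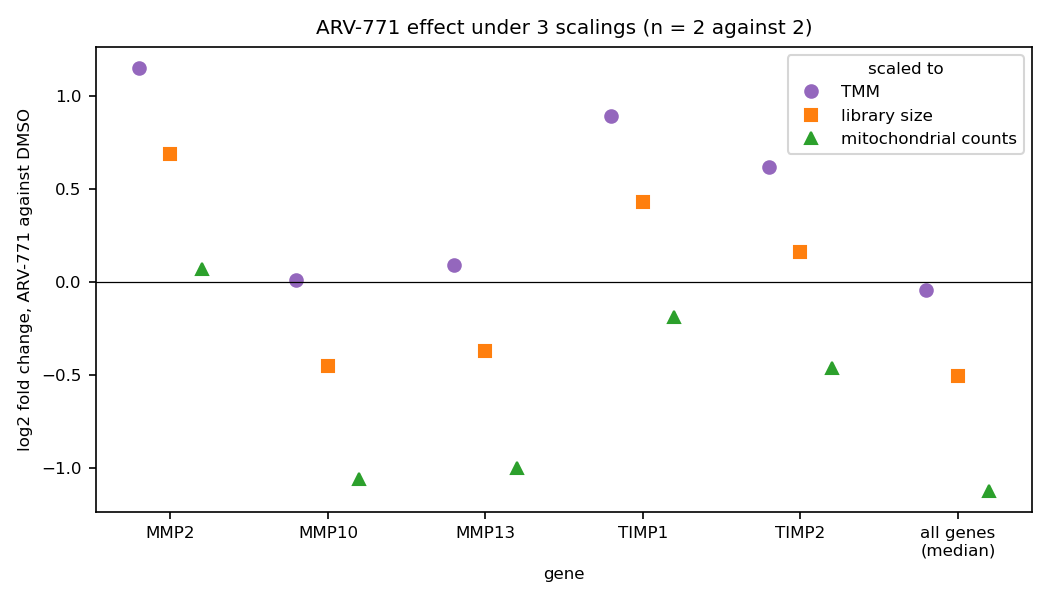
Log2 fold change of the 5 tested genes and median of all genes with ARV-771 against DMSO, with counts scaled by TMM (circles), to library size (squares) or to mitochondrial counts (triangles). The median gene falls from -0.044 to -1.12 across the scalings, and MMP10 and MMP13 move with it.

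In SKMES1 the set looked different from KYSE140. The control libraries of the CRISPRa and CRISPRi series were compared, in which cell line and CRISPR system cannot be told apart, and these controls are shared with the comparisons of e1 repression and e1 activation. Of the 10 genes, 8 passed the filter, 6 were called higher in SKMES1, where 30.4% of 15100 genes were called higher, and 2 were called lower, where 25.2% of genes were called lower. MMP7, MMP9, MMP10 and MMP13 passed the filter through 1 of the groups alone. Among markers of other cell types, CD68 was at 66.7 and 132 TPM in the SKMES1 NC libraries against 0.84 and 1.08 TPM in KYSE140, and PDGFRB was at 1.37 and 2.15 TPM against 0. COL1A1 was at 13.5 and 19.1 TPM, COL1A2, COL3A1, DCN and CD3E were at 0, LUM reached at most 0.18 TPM and PTPRC at most 0.08 TPM. The summed level was 14.9 to 21.4 TPM for the fibroblast list and 67.6 to 133 TPM for the leukocyte list, against 13.5 to 15.9 TPM and 0.84 to 1.66 TPM, and their part in the difference between the lines was not tested.

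MMP14, the membrane-bound protease that activates pro-MMP2, stood at 72.0 and 114 TPM in SKMES1 and 0.5 and 0.54 TPM in KYSE140, a log2 fold change of 7.21 ± 0.27 (adjusted p = 2.4e-05). MMP2 stood at 128 and 204 TPM against 9.75 and 8.93 TPM, a log2 fold change of 4.43 ± 0.21 (adjusted p = 4.5e-05). TIMP2 stood at 186 and 319 TPM against 18.5 and 18.7 TPM, a log2 fold change of 3.63 ± 0.26 (adjusted p = 1.5e-04). These genes encode the proteins of the MMP14, TIMP2 and pro-MMP2 complex. The groups did not overlap for any of them, nor for the other tested genes of the set. How many of all genes were without overlap was not computed, so nothing is read from this. In this comparison 70.9% of all genes had an unadjusted edgeR p under 0.05. TIMP1 stood at 382 and 619 TPM against 22.3 and 25.2 TPM, a log2 fold change of 4.2 ± 0.24 (adjusted p = 7.9e-05).

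MMP7 had 495 and 351 counts in SKMES1 against 1 and 0 in KYSE140 (adjusted p = 1.2e-04). MMP9 had 19 and 26 counts against 2 and 0, a ratio of 21.9 (95% counting interval 5.72 to 186, adjusted p = 0.00445). In contrast, MMP10 had 1 and 0 counts in SKMES1 against 106 and 75 in KYSE140 (adjusted p = 3.5e-04). MMP13 had 5 and 4 counts against 36 and 29, a log2 fold change of -2.87 ± 0.44 (adjusted p = 0.00232). The ratio of summed MMP to summed TIMP1 and TIMP2 level was nevertheless similar in value, at 0.49 and 0.39 in SKMES1 and 0.521 and 0.388 in KYSE140. It leaves out TIMP3, at 6.83 and 21.7 TPM in SKMES1 and 70.7 and 77.2 TPM in KYSE140. TIMP4, at 38.8 and 50.6 TPM in SKMES1 and 0 in KYSE140, is left out as well. The similarity thus covers TIMP1 and TIMP2 only.

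By level, TIMP1 ranked first in the SKMES1 NC libraries, above TIMP2 and MMP2, which overlapped, and MMP14 and MMP7, which also overlapped with each other, came next. With CRISPRi NC guides in KYSE140 the order was TIMP1, TIMP2, MMP2, MMP10, MMP13 and MMP14, each separate from the next. In the e1 libraries MMP13 and MMP10 stood above MMP2 and TIMP2, and in the knockout libraries MMP10 and MMP13 stood highest, overlapping each other and above TIMP2, MMP1, MMP9 and TIMP1.

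Activation of e1 in SKMES1 asked the reverse question, since SOX2 rose from near 0. With edgeR, no gene of the set was called among the 7 that passed the filter, and 0.188% of 14859 genes were called in either direction. At an unadjusted p under 0.05 there were 3 genes higher and 1 lower, where 14.2% of all genes reached that level, DESeq2 called 2 genes of the set and limma called 0. MMP13 had 5 and 4 counts with NC guides and 17 and 23 with e1 guides, a log2 fold change of 2.00 ± 0.50 (adjusted p = 0.198), and it passed the filter through the e1 libraries alone. MMP2 had 2735 and 4778 counts against 5036 and 12416, a log2 fold change of 1.03 ± 0.25 (adjusted p = 0.187). MMP7 had 495 and 351 counts against 645 and 1507, a log2 fold change of 1.12 ± 0.28 (adjusted p = 0.197). MMP9 had 19 and 26 counts against 5 and 11, a log2 fold change of -1.63 ± 0.42 (adjusted p = 0.207), and it passed the filter through the NC libraries alone. MMP13 could thus only be found higher and MMP9 only lower.

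The libraries with and without e1 guides did not overlap for these 4 genes, none of which was called. The share of all genes without overlap was not computed, so nothing is read from this. MMP14, TIMP1 and TIMP2 overlapped between the groups, with log2 fold changes of -0.18 ± 0.18, -0.24 ± 0.22 and -0.38 ± 0.26. MMP1 had 0 and 1 counts with NC guides and 1 and 9 with e1 guides, MMP10 had 1 and 0 against 1 and 20, MMP3 had at most 1 count, and these were not tested. Without NC library 2, which stood apart, 1 gene was called higher (MMP2, 1.32, adjusted p = 0.0296). Without NC library 1, MMP7 was called higher (1.55, adjusted p = 0.00656) and TIMP2 lower (-0.70, adjusted p = 0.0375).

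Further genes of the pathway were taken from lists written with earlier results of these data known. Of 7 activators of pro-metalloproteinases, 6 passed the filter on e1 repression, 2 were called higher and 0 lower, where 9.30% of all genes tested were called higher and 10.7% lower. They were PLAU, the urokinase that generates plasmin (4.91 ± 0.18, adjusted p = 5.8e-12), and its receptor PLAUR (3.19 ± 0.14, adjusted p = 5.1e-11). PLAU went from 1.62 and 3.32 TPM to 82.7 and 66.0 TPM. The knockout libraries held 142 to 158 TPM of PLAU, against 2.15 and 4.58 TPM in their controls, and there 2 activators were called higher and 1, the tissue plasminogen activator PLAT (-1.88 ± 0.25), was called lower, where 16.3% of all genes were called higher and 13.5% lower. FURIN, BSG and PCSK6 were not called in either contrast. With ARV-771 BSG and PCSK6 were called higher on the TMM scale (0.91 ± 0.04 and 0.79 ± 0.09), where 21.2% of all genes were called higher.

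Of 15 other MMP genes, 3 passed the filter on e1 repression. MMP28, epilysin, had 1 count over both NC libraries and 74 over both e1 libraries, a ratio of 86.4 (95% counting interval 15 to 3460), whereas MMP11 (-1.74 ± 0.24) and MMP15 (-0.98 ± 0.13) were called lower. Over all genes 9.30% were called higher and 10.7% lower. MMP28 passed the filter through the e1 libraries alone, so it could only be found higher. In the knockout contrast MMP28, MMP19 and MMP15 were called higher and MMP11 (-2.02 ± 0.31) was called lower, where 16.3% of all genes were called higher and 13.5% lower. MMP28 and MMP19 had at most 3 counts in a knockout control and passed the filter through the knockout libraries alone. These 2 genes could thus only be found higher there. MMP15 thus had opposite signs in the contrasts (-0.98 and 1.42). The 2 inhibitors of this list that passed the filter were TIMP3, called lower on e1 repression (-0.76 ± 0.06, adjusted p = 6.0e-08) and not called in the knockout (-0.53 ± 0.12), and RECK, which was not called in either. In SKMES1 TIMP4 was at 38.8 and 50.6 TPM and at 0 in the CRISPRi NC libraries, TIMP3 was lower (-2.49 ± 0.48) and RECK higher (1.70 ± 0.21). Of the 7 other MMP genes tested there, 6 were higher and MMP11 lower, where 30.4% of all genes were called higher and 25.2% lower. MMP16, MMP17, MMP24, MMP25 and MMP28 had at most 11 counts in any CRISPRi NC library and passed the filter through the SKMES1 libraries alone. They and TIMP4 could thus only be found higher, which raises the count of 6. MMP28 was at 5.56 TPM in NC library 1 and 56.6 TPM in NC library 2.

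Transcription factors known to act at MMP promoters, 13 in the list, all passed the filter on e1 repression. Of these, 6 were called higher and the other 7 were not called, where 9.30% of all genes tested were called higher. Their median log2 fold change was 0.44 against -0.002 for all genes. FOSL1, an AP-1 member, rose by 3.57 ± 0.10 (adjusted p = 5.0e-13), from 9.97 and 11.8 TPM to 146 and 124 TPM. ETS1 rose by 5.62 ± 0.17 (adjusted p = 6.7e-13), from 2.28 and 1.73 TPM to 36.2 and 30.3 TPM, and JUN rose by 2.31 ± 0.08 (adjusted p = 1.9e-12). The remaining 3 were JUNB, FOSB and RUNX2. In the knockout contrast 7 were called higher, led by FOSL1 (2.14 ± 0.09), ETS1 (3.92 ± 0.17) and JUNB (2.22 ± 0.11), and 2, ETV4 and ETV5, were called lower. Of all genes tested there, 16.3% were called higher and 13.5% lower. With ARV-771 the list went the other way on the TMM scale, with 1 called higher (FOS, 1.90 ± 0.27) and 7 called lower. Of 13500 genes, 21.2% were called higher and 31.7% lower. Among the 7 were FOSL2 (-3.10 ± 0.09), ETS2 (-3.08 ± 0.12) and JUNB (-2 ± 0.09). In SKMES1 FOSL1 was at 456 and 631 TPM and ETS1 at 55.7 and 77.02 TPM, and none of the 12 factors tested was called on e1 activation with edgeR, where FOSL1 had a log2 fold change of -0.61 ± 0.19. FOSL1, ETS1 and JUN were each called higher in the SKMES1 NC libraries than in those of KYSE140 (5.49 ± 0.21, 6.50 ± 0.25 and 3.11 ± 0.09). Of the 13 factors, 5 were called higher and 4 lower in that comparison. Over all genes 30.4% were called higher and 25.2% lower.

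**Figure D5:**
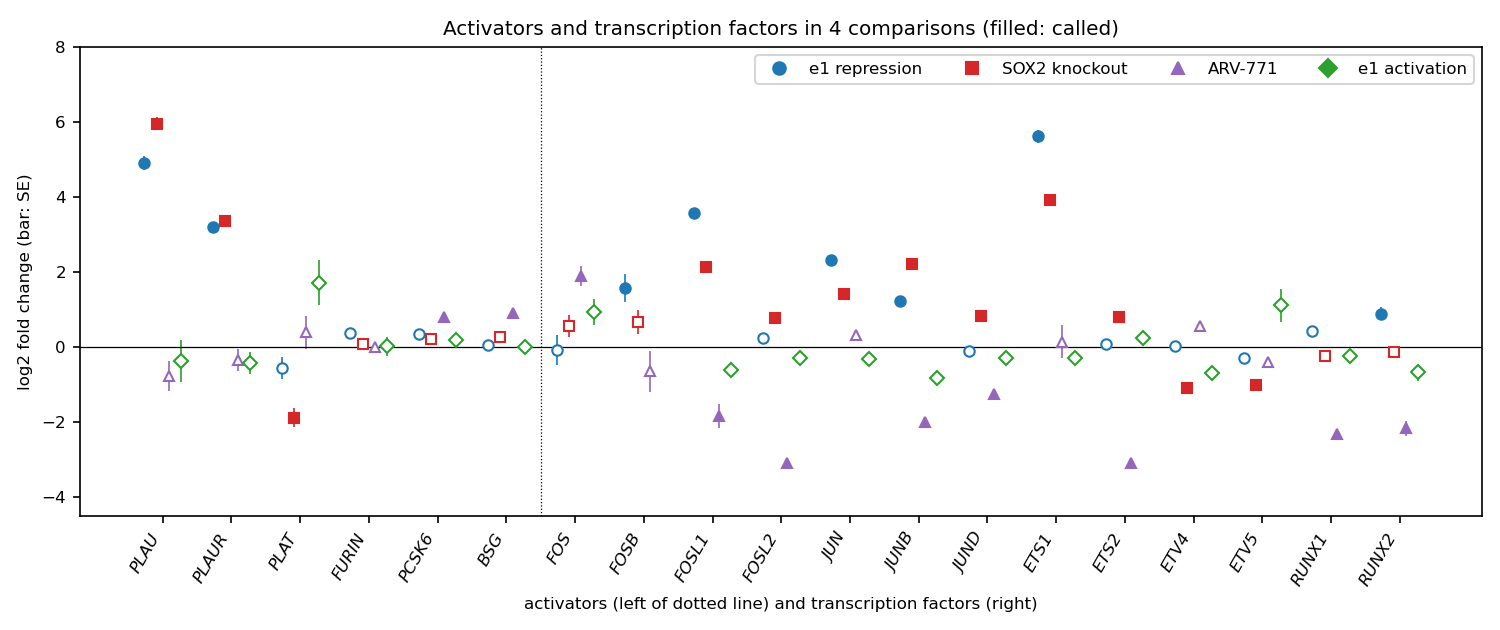
Log2 fold change (points, bars are SE) of 6 activators and 13 transcription factors in 4 comparisons. Filled points were called. PLAU, PLAUR, FOSL1, ETS1, JUN and JUNB are filled above 0 for e1 repression and SOX2 knockout, and 7 transcription factors are filled below 0 for ARV-771 on the TMM scale.

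Among the genes whose level was most like that of MMP13 over the 13 KYSE140 libraries, by Pearson correlation of log2(TPM + 1) among 13982 genes, were BDKRB1 (r = 0.992), ANXA8L2 (r = 0.988), FXYD5 (r = 0.986) and CRABP2 (r = 0.986). These correlations are a description, since the libraries share groups of high and low MMP13, namely 5 libraries with e1 or SOX2 guides and 8 others. BDKRB1, a bradykinin receptor, was at 4.91 TPM or more in those 5 libraries and at 0 in the 8 others. Only genes with a mean of at least 1 TPM over these 13 libraries were compared, which left out MMP3, MMP7 and MMP14. Among the other genes of the set MMP1 had the highest correlation with MMP13 (r = 0.946). It was followed by MMP9 (0.875), MMP10 (0.822), TIMP2 (0.697), MMP2 (0.574) and TIMP1 (0.331). The 13 libraries include the knockout libraries whose MMP13 values chose the set.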

How the data were processed

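RNA was measured as poly-A, strand-directional libraries. Per the labels and methods, the authors mapped reads to hg19 by Bowtie2 and counted GENCODE genes by RSEM (versions not given in the sources used here). The deposited tables hold expected counts, estimated by the authors' RSEM run and not normalized between libraries, and TPM, scaled by the authors within each library over effective length, which varies by library, so that TPM and count ratios of 1 gene can differ. Deposited FPKM was not used. From 7.41% to 10.0% of genes had expected counts that were not whole (tolerance 0.005).

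Expected counts were rounded and tested with edgeR 4.0.16 (quasi-likelihood, TMM, filterByExpr with minimum count 10 and total 15; R 4.3.3) in fits that held only the groups being compared. Calls needed an adjusted p (Benjamini-Hochberg, over all genes tested) under 0.05 and a change over 1.5-fold. Alternatives used DESeq2 1.42.0 and limma 3.58.1 on log2(TPM + 1) and log2(TPM + 0.1), and the fits were tested on simulated data. Groups came from the labels. Replicates were different guides or cultures of 1 line, so p-values measure the spread between these libraries. All replicate pairs differed by more than sampling noise (chi-square per degree of freedom 2.19 to 28.8). Intervals of count ratios are exact binomial. Named genes were the 10 members, up to 3 called genes with the smallest p of each list and comparison, SOX2, and the 5 genes most correlated with MMP13, of which 1 is not reported here; other genes named, such as further called list genes and markers, were chosen after their values were seen. Members and lists were chosen with earlier results of these data known. Gene positions came from GENCODE v44lift37, and promoters from RefSeq (GRCh38.p14), matched to GRCh37.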

Additional observations from a re-analysis of the deposited data

How the results depend on the processing

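On e1 repression the 7 called genes kept their direction under every alternative that gave a value, and the count called lower became 1 without a minimum fold change (TIMP2). The fitted log2 fold changes of MMP7 (3.82 to 6.88) and MMP9 (3.79 to 7.76) moved with the control library left out, and MMP7 missed the threshold with limma on log2(TPM + 0.1) (adjusted p = 0.0512). In the knockout contrast 1 gene, not 0, was called lower with library size, with either limma fit and without a minimum fold change, and MMP9 ranged from 7.65 to 12.03 and MMP14 from -0.74 to 1.43 with 1 library left out.

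With ARV-771 the genes called higher numbered 1 with library size and 0 with both limma fits and mitochondrial scaling, and those called lower 1 with both limma fits and 2 with mitochondrial scaling. MMP10 changed sign with library size (-0.45), no filter (-0.02), limma on log2(TPM + 1) (-0.60) and log2(TPM + 0.1) (-0.71) and mitochondrial scaling (-1.06), and ranged from -0.02 to 0.05 with 1 library left out. MMP13 changed sign with library size (-0.37), both limma fits (-0.47 and -0.67) and mitochondrial scaling (-1), and ranged from -0.16 to 0.38. TIMP2 changed sign with both limma fits (-0.06) and mitochondrial scaling (-0.46), and TIMP1 with mitochondrial scaling (-0.19). Without DMSO library B, 2 genes were called higher, since TIMP2 (0.50) fell below the minimum fold change.

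On e1 activation the genes called higher numbered 2 with DESeq2, 2 with no filter and 4 with all 17 libraries in 1 fit, against 0. With 1 library left out they ranged from 0 to 1 higher and 0 to 1 lower, MMP14 from -0.41 to 0.10, TIMP1 from -0.52 to 0.09 and TIMP2 from -0.70 to 0.04. In the cell line comparison 1 gene, MMP10, was called lower with either limma fit, where MMP13 fell under the minimum TPM. The cause of the other changes was not tested. Over all genes, calls on e1 activation numbered 28 with edgeR, 400 with DESeq2, 1116 with no filter and 784 with all 17 libraries, 9 and 8 with limma, and 1 to 764 with 1 library left out.

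Guide numbers and culture letters are shared between groups, and the NC guides have the same names in both lines. The deviations of same-numbered libraries had correlations of 0.021 (e1 repression), 0.012 (ARV-771) and 0.053 (cell line comparison). Each correlation rests on 2 libraries per group, so it cannot show whether libraries were handled in pairs. With the replicate block the counts called higher were 7 on e1 repression, 3 with ARV-771 and 6 in the cell line comparison, as without it. Where both groups of a comparison were at or under the floor of 3 counts, as for MMP3, a difference was not detectable at this depth.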
